A study of Mus musculus with 17 samples.

Results

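Genes that mark T cells and natural killer (NK) cells were followed through mouse fat and through implants grown from cells in 16 RNA-seq libraries. The genes are 36 symbols picked by name, among the 54658 genes of the deposited table, because they encode the T cell receptor complex, its coreceptors and signalling proteins, costimulatory receptors, cytokine receptors, T cell transcription factors, cytotoxic granule proteins or NK receptors. All 36 were found by symbol and all 36 had at least 1 CPM (the reads of a gene scaled to a library total of 1000000) in at least 2 libraries, so all were tested. Cd40lg did so only through the 2 libraries of the group coded MWF below.

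T cells recognise antigen through receptor chains that signal only together with the CD3 chains, and the coreceptor on the cell, CD4 or CD8, decides which class of MHC molecule it reads. T cells mature in the thymus, pass through lymph nodes, and a minority of them settle in fat, where regulatory T cells that express Foxp3 are known to be enriched in the visceral depot. NK cells lack the rearranged receptor, kill through the same granule proteins as cytotoxic T cells, and are recognised by receptors such as NKp46 and NK1.1.

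The hosts were mice of a type named LD. They received mouse embryonic fibroblasts (MEF), by injection under the skin over the sternum at 3 to 5 weeks of age, from wildtype (WT) pups or from pups homozygous for a leptin knockout (KO), and the injected cells formed a tissue resembling fat. In those with surgery, the left knee's medial meniscus was destabilized at 16 weeks, and tissue was taken at 28 weeks. MWF and MWM are implants of WT cells with surgery in groups described as female and male, and MKF and MKM are implants of KO cells with surgery in groups described as female and male. The design text itself calls the hosts male. EVM is endogenous visceral fat with surgery, EVFN endogenous visceral fat without surgery, and ESM endogenous subcutaneous fat of males with surgery. EVFY carries the visceral genotype label, but its code is not spelled out. Each code has 2 libraries, and a single sample coded ESF is not analysed here. Which host the endogenous fat came from is not given in the sources used here, and the labels do not state whether the 2 libraries of a code stem from different animals. The p-values therefore describe the spread between libraries, and this spread may be technical.

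Libraries held 16444965 to 25805502 reads. The labels name the tissue as ganglia, but a list of 8 adipocyte genes summed to 12251 to 38499 CPM and a list of 11 sensory neuron genes to 8.26 to 43.7 CPM. Lep, the leptin gene, was read at 1336 to 1726 CPM in the libraries labelled MKF1, MKF2 and MKM2, inside the range of 516 to 2675 CPM in the 11 other libraries of the fit. The labels do not say whether the knockout allele removes the RNA, so this level does not test the genotype. A pair of libraries stood apart from their codes: 8 macrophage genes summed to 5678 CPM in EVFN1, against 1147 to 2354 in the 7 other endogenous fat libraries, and to 1706 in MKM1, against 5052, 6103 and 4755 in MKF1, MKF2 and MKM2. Both are shown singly, are left out of group means and of the fit, and each count is also given with all 16 libraries.

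Much of what follows concerns genes that moved together, so the start regions of 5 of them, and of the NK receptor gene Ncr1, which did not move with them, are printed here as 250 bases before the RefSeq start (GRCm38.p6), 5′ to 3′ on the gene's strand. Cd3g and Cd3d lie head to head on chromosome 9 with 1354 bases between them, and their 2 windows both fall in that gap. The last 16 bases of the Cd3e window lie inside the gene in the GENCODE annotation. Capitals mark matches, on either strand, to CTTTGA (bound by TCF/LEF factors, which include the members Tcf7 and Lef1), AGATAA (for the family of Gata3), CAGGAA (ETS factors), TGTGGT (RUNX factors) and CAGGTG (E-box factors).
Cd3d promoter, chr9:44981536-44981785, plus strand: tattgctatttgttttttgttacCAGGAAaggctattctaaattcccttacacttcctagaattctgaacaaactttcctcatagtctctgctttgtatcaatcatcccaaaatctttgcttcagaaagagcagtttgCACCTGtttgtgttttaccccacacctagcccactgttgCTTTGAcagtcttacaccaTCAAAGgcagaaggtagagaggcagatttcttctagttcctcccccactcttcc
Cd3g promoter, chr9:44980432-44980681, minus strand: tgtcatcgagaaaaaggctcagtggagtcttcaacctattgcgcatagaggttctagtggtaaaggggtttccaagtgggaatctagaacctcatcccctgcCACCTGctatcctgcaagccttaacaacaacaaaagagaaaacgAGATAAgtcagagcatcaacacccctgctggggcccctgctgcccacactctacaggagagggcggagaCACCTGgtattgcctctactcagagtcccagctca
Cd3e promoter, chr9:45009612-45009861, minus strand: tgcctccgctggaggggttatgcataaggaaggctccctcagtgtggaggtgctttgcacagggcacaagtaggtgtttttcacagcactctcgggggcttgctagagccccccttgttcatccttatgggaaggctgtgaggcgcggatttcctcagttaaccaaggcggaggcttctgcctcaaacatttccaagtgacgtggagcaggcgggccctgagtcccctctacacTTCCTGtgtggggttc
Cd8a promoter, chr6:71373177-71373426, plus strand: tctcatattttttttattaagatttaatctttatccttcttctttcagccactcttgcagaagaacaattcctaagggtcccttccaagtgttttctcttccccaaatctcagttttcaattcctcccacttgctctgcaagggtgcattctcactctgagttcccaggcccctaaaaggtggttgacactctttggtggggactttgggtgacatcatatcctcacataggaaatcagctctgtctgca
Lck promoter, chr4:129573642-129573891, minus strand: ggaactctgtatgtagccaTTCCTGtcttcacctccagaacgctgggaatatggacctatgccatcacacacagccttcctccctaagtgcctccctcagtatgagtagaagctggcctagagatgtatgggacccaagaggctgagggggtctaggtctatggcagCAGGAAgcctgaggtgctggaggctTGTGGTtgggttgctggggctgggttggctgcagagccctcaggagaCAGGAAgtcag
Ncr1 promoter, chr7:4337465-4337714, plus strand: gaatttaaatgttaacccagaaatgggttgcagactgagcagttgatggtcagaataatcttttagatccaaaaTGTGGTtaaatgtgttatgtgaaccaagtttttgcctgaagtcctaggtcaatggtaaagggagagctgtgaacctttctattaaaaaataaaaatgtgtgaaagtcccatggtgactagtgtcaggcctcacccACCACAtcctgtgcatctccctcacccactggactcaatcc

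In the windows printed, the Cd3d promoter held a pair of TCF/LEF matches, at -73 to -68 and, on the opposite strand, at -54 to -49 from the start, Cd3g held the GATA match and Lck held 3 ETS matches. Cd8a held no match to any of the 5 motifs, and Ncr1 held 2 matches to the RUNX letters. RefSeq promoter windows were found for 25 of the 36 members, 35 windows in all. Each window held 300 bases including 50 after the start, but matches were counted only in the 250 bases before the start. CAGGAA occurred in 37.1% of member windows and 25.7% of all 32851 windows, TGTGGT in 25.7% and 14.0%, CAGGTG in 31.4% and 17.2%, CTTTGA in 11.4% and 13.8%, and AGATAA in 5.71% and 9.99%. A match describes letters in the window and not a bound site.

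The T cell receptor complex was high in both MWF libraries and low everywhere else. Its 7 members are the CD3 chains Cd3d, Cd3e and Cd3g, the zeta chain Cd247, and the receptor constant regions Trac, Trbc1 and Trbc2. Together they summed to 355 and 466 CPM in the MWF libraries and to 6.21 to 49.7 CPM in the other 14. Cd3e was at 48.5 and 48.6 CPM in the MWF libraries, 0.517 and 1.92 in the MWM libraries, 4.49 and 0.730 in the MKF libraries and 2.95 in MKM2. For Cd3e, endogenous fat had 1.23 and 0.155 in EVM, 2.06 and 1.43 in EVFY, 0.772 in EVFN2 and 0.170 and 0.570 in ESM CPM, MKM1 had 2.76 and EVFN1 0.638. Both MWF libraries lay above every other library. Next came MKF1 and MKM2, the MKF libraries spanned most of the remaining range, and EVFY lay above EVM and ESM. In bulk RNA, fewer T cells and less of the RNA per T cell cannot be told apart. Cd3d reached 29.7 CPM in MWF1 and 27.1 in MWF2, against 0.376 and 1.19 in the MWM libraries, 4.44 and 0.644 in the MKF libraries and 2.14 in MKM2. The Cd3d level in endogenous fat was 0.893 and 0.233 in EVM, 0.855 and 0.767 in EVFY, 0.832 in EVFN2 and 0.454 and 0.114 in ESM CPM, with 0.827 in MKM1 and 0.580 in EVFN1. Cd3d too was highest in both MWF libraries, then MKF1 and MKM2, and Cd3g was highest in the MWF libraries at 33.0 and 48.2 CPM in the MWF libraries and at most 4.06 elsewhere. Cd247 differed in having a higher level outside the MWF libraries, 1.86 to 7.25 CPM, with 32.9 and 43.0 in them. Per kilobase of annotated exon, the Trac level was 94.9 and 69.3 CPM per kb in MWF1 and MWF2 and the Cd3e level 11.9 and 11.9. Trbc1 and Trbc2, adjacent near-identical copies on chromosome 6, may share reads, so their separate levels are uncertain.

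**Figure D1:**
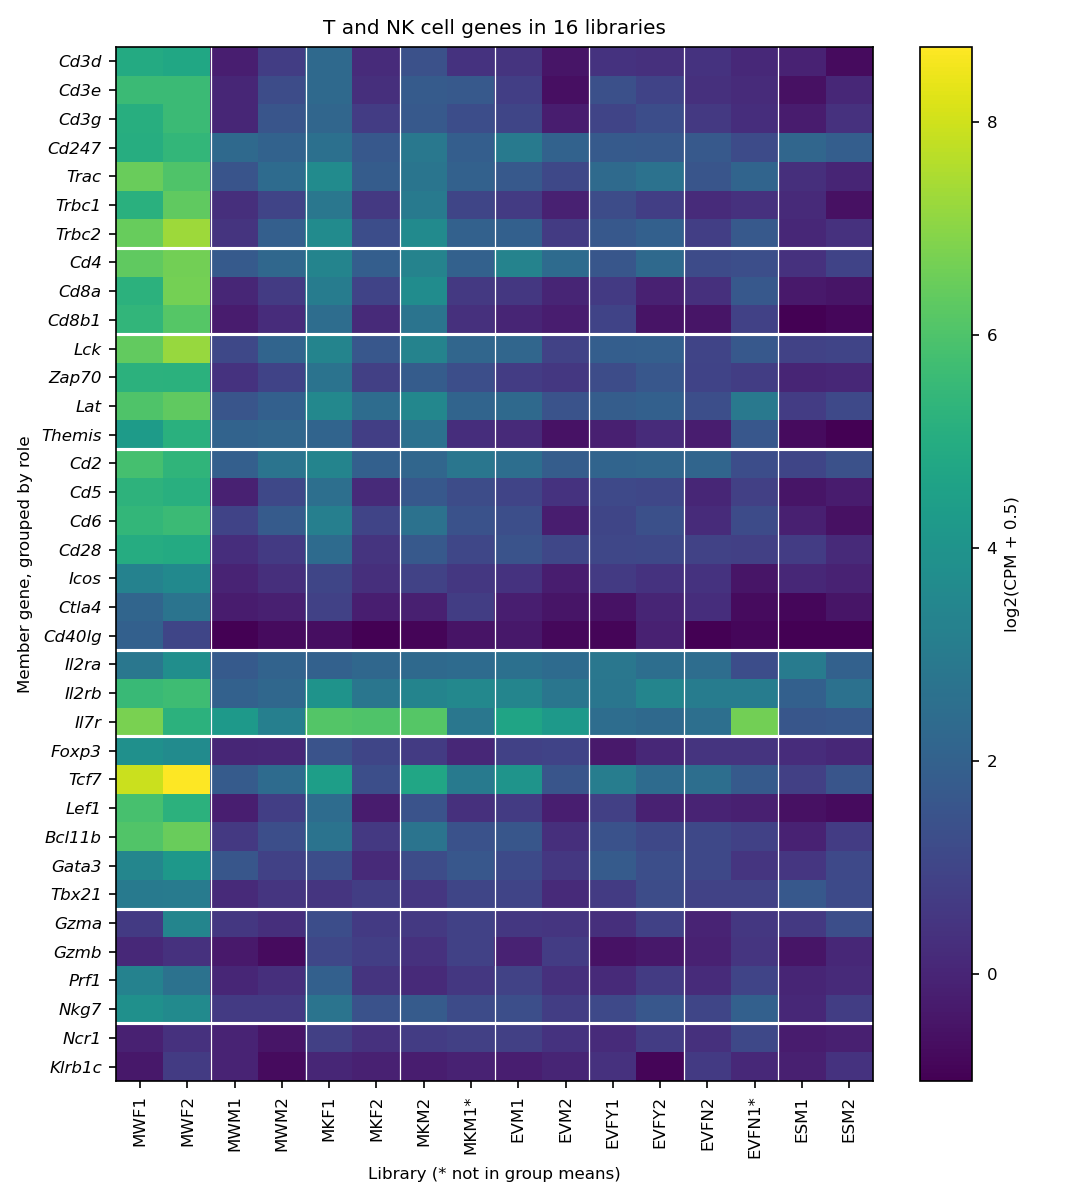
Level of the 36 members, as log2(CPM + 0.5), in each of the 16 libraries, with members in rows grouped by role and libraries in columns. The 2 MWF columns stand above the other 14 for 30 of the 36 members, and Il7r is also high in MKF1, MKF2, MKM2 and EVFN1.

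The coreceptors Cd4, on helper and regulatory T cells and also on some macrophages and dendritic cells, and Cd8a and Cd8b1, the chains of CD8, had the same highest group but a different order below it. Cd4 was at 80.4 and 98.1 CPM in the MWF libraries, 2.87 and 4.29 in the MWM libraries, 9.90 and 3.22 in the MKF libraries and 9.67 in MKM2. For Cd4, endogenous fat had 9.54 and 4.77 in EVM, 2.56 and 4.44 in EVFY, 1.84 in EVFN2 and 0.794 and 1.42 in ESM CPM, MKM1 had 3.53 and EVFN1 2.03. MKF1, MKM2 and EVM1 followed at 9.90, 9.67 and 9.54 CPM, below both MWF libraries. Cd8a reached 37.7 CPM in MWF1 and 103 in MWF2, against 0.517 and 1.13 in the MWM libraries, 7.97 and 1.42 in the MKF libraries and 12.6 in MKM2. For Cd8a, endogenous fat had 1.00 and 0.504 in EVM, 1.06 and 0.439 in EVFY, 0.772 in EVFN2 and 0.284 and 0.228 in ESM CPM, MKM1 had 1.05 and EVFN1 2.67. Here MWF2 was higher than MWF1, and MKM2 and MKF1 lay above all endogenous fat libraries. Cd8b1, 35932 bases from Cd8a on chromosome 6, was at 41.9 and 70.9 CPM in the MWF libraries, 5.07 in MKF1, 6.21 in MKM2 and at most 1.46 in the others. The ratio of Cd8a to Cd4 reads was 0.469 (95% interval 0.428 to 0.513) in MWF1 and 1.05 (95% interval 0.98 to 1.12) in MWF2, with exact binomial intervals that cover counting error only. It was 1.31 (95% interval 1.08 to 1.59) in MKM2 and 0.805 (95% interval 0.652 to 0.993) in MKF1. The 2 MWF libraries thus differed in this ratio beyond counting error. EVFN1, with fewer reads, had 1.31 (95% interval 0.828 to 2.1), and the 7 other endogenous fat libraries had 0.0988 to 0.419.

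The proteins that carry the signal from the receptor followed the receptor, with Themis as an exception among the WT implants. Lck was at 82.7 and 148 CPM in the MWF libraries, 1.64 and 3.84 in the MWM libraries, 9.90 and 2.58 in the MKF libraries and 9.52 in MKM2. The Lck level in endogenous fat was 4.13 and 1.40 in EVM, 3.22 and 3.29 in EVFY, 1.49 in EVFN2 and 1.36 and 1.48 in ESM CPM, with 4.13 in MKM1 and 2.73 in EVFN1. Lck, the kinase that starts the signal and rides on the coreceptors, was lowest in ESM1, EVM2, EVFN2 and ESM2 and highest, outside MWF, in MKF1 and MKM2. Both ESM libraries lay below MWM, EVFY and MKF. Zap70, the kinase recruited to the phosphorylated receptor, was at 37.0 and 36.0 CPM in the MWF libraries and 0.511 to 5.94 elsewhere, and Lat, the membrane adaptor it phosphorylates, at 64.2 and 80.0 and 1.13 to 11.2. Themis, a protein that tunes receptor signals in developing thymocytes, was at 19.6 and 35.3 CPM in the MWF libraries, 3.71 and 4.12 in MWM, 3.87 and 1.24 in MKF and 5.65 in MKM2. Endogenous fat had 0 to 0.658 CPM of it in 7 libraries, so that no implant of the fit overlapped endogenous fat. MKM1 had 0.716 and EVFN1 2.61. In MWM1, Themis stood above every endogenous library although Cd3e did not.

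Surface receptors of costimulation and adhesion had the same highest group. Cd2, Cd5, Cd6, Cd28, Icos, Ctla4 and Cd40lg summed to 187 and 173 CPM in the MWF libraries and 3.91 to 31.5 in the other 14. Cd28, the main costimulatory receptor, was at 32.1 and 30.5 CPM in MWF and at most 4.73 elsewhere, and its chromosome 1 neighbours Ctla4, an inhibitory receptor for the same ligands, and Icos, an inducible costimulator, were at 3.93 and 6.08 and 9.46 and 11.7 in MWF and at most 1.35 and 1.55 elsewhere. Cd2, an adhesion receptor shared by T and NK cells, was at 57.6 and 40.1 CPM in MWF and 1.53 to 9.81 elsewhere. Cd40lg, the ligand by which helper T cells activate B cells, was at 3.45 and 1.52 CPM in MWF, at most 0.439 elsewhere, and had 0 reads in 5 libraries, where a count of 0 allows up to 3 reads (0.129 to 0.178 CPM in those 5, counting error only). Cd40lg thus passed the filter of 1 CPM only through the MWF libraries. Its place in the counts below that involve MWF adds no support to them.

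Among the cytokine receptors, Il7r had a pattern of its own. It encodes the receptor for interleukin 7, which keeps naive and memory T cells and other lymphocytes alive. Il7r was at 108 and 36.9 CPM in the MWF libraries, 17.9 and 8.70 in the MWM libraries, 68.3 and 65.6 in the MKF libraries and 70.6 in MKM2. For Il7r, endogenous fat had 25.2 and 17.9 in EVM, 5.03 and 4.55 in EVFY, 5.29 in EVFN2 and 2.55 and 2.68 in ESM CPM, MKM1 had 6.61 and EVFN1 98.7. High levels were thus shared by MWF1, MKF1, MKF2, MKM2 and EVFN1, and MWF2 lay below MKF1, MKF2 and MKM2 but above MKM1. Of these 5 libraries, MWF1 alone was among the 2 with high Cd3e. The sum of 8 macrophage genes was also high in MKF1, MKF2, MKM2 and EVFN1, at 5052, 6103, 4755 and 5678 CPM, but not in MWF1. That sum was 1555 and 1489 in the MWF libraries and 1147 to 2354 in all others. The part of macrophage RNA in the Il7r level was not tested. Il2rb, the beta chain shared by the interleukin 2 and 15 receptors, was at 46.8 and 51.0 CPM in MWF and 3.46 to 15.2 elsewhere. Il2ra, the alpha chain found on regulatory and activated T cells, was at 6.64 and 13.6 in MWF and 1.97 to 7.77 elsewhere, so that MWF1 overlapped the others.

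**Figure D2:**
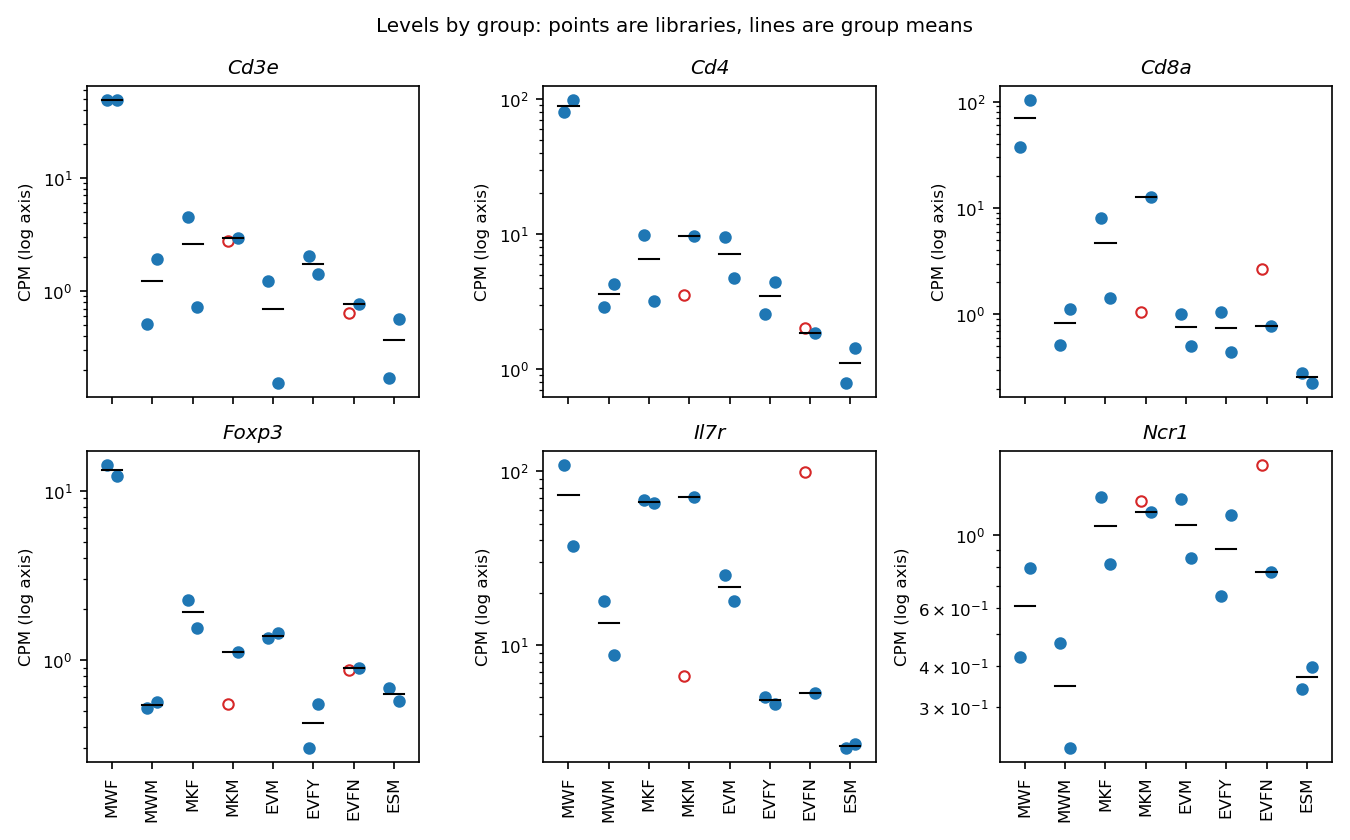
CPM of 6 members on a log axis in each group, with a point per library and a line at the group mean, which for MKM and EVFN is the single library of the fit; open red points are MKM1 and EVFN1. Cd3e, Cd4, Cd8a and Foxp3 are highest in both MWF libraries, Il7r is shared with the KO implants, and Ncr1 is not higher in MWF.

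All 6 T cell transcription factors of the list were highest in the MWF libraries, by margins that differed from gene to gene. Tcf7 was at 242 and 417 CPM in the MWF libraries, 2.96 and 4.69 in the MWM libraries, 21.2 and 2.02 in the MKF libraries and 26.2 in MKM2. For Tcf7, endogenous fat had 16.0 and 2.44 in EVM, 8.14 and 4.77 in EVFY, 5.23 in EVFN2 and 1.30 and 2.45 in ESM CPM, MKM1 had 7.33 and EVFN1 2.84. Tcf7, the factor of early T lineage commitment and of naive and memory cells, was highest in MWF2, then MWF1, and MKM2, MKF1 and EVM1 followed at 26.2, 21.2 and 16.0. Foxp3 reached 14.1 CPM in MWF1 and 12.3 in MWF2, against 0.517 and 0.565 in the MWM libraries, 2.27 and 1.55 in the MKF libraries and 1.12 in MKM2. The Foxp3 level in endogenous fat was 1.34 and 1.43 in EVM, 0.302 and 0.548 in EVFY, 0.891 in EVFN2 and 0.681 and 0.570 in ESM CPM, with 0.551 in MKM1 and 0.870 in EVFN1. Foxp3, which defines regulatory T cells, was also above every other library in MWF, and the MKF libraries and EVM, at 2.27, 1.55, 1.34 and 1.43 CPM, lay above MWM, EVFY and ESM. The ratio of Foxp3 to Cd3e reads was 0.292 (95% interval 0.253 to 0.335) in MWF1 and 0.253 (95% interval 0.216 to 0.295) in MWF2, with overlapping intervals. Of the other libraries, only EVFY1 (0.146) and MKM1 (0.2) had lower ratios. The highest was 9.25 in EVM2, from 37 and 4 reads. Foxp3 was thus not high relative to Cd3e in MWF. Gata3 was at 10.4 and 17.8 CPM in the MWF libraries, 2.54 and 1.36 in the MWM libraries, 1.98 and 0.601 in the MKF libraries and 1.88 in MKM2. The Gata3 level in endogenous fat was 1.79 and 1.01 in EVM, 2.97 and 2.03 in EVFY, 1.66 in EVFN2 and 0.964 and 1.71 in ESM CPM, with 2.64 in MKM1 and 0.928 in EVFN1. Gata3 acts in thymocytes and type 2 helper cells and is also made by other cell types. Its MWF values stood above all others by a smaller margin, with EVFY1, MKM1 and MWM1 next. Lef1, a partner of Tcf7, was at 57.9 and 37.4 CPM in MWF and at most 4.93 elsewhere, Bcl11b, which fixes T lineage identity, at 66.8 and 89.0 and at most 6.11, and Tbx21, the factor of type 1 helper and NK cells, at 7.28 and 7.78 and at most 2.67.

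Of the 4 granule genes and 2 NK receptor genes, only Prf1 and Nkg7 were above all other libraries in both MWF libraries. Gzma reached 1.06 CPM in MWF1 and 10.3 in MWF2, against 0.987 and 0.734 in the MWM libraries, 1.98 and 1.07 in the MKF libraries and 1.02 in MKM2. For Gzma, endogenous fat had 1.00 and 0.930 in EVM, 0.754 and 1.32 in EVFY, 0.475 in EVFN2 and 1.02 and 1.99 in ESM CPM, MKM1 had 1.32 and EVFN1 0.986. Gzma, a granule protease of NK cells and cytotoxic T cells, was high only in MWF2 among the 16 libraries, and MWF1 lay inside the range of the others. Gzmb, its partner protease, was at 0.113 to 1.59 CPM over all 16 libraries, highest in MKF1. Ncr1 was at 0.425 and 0.791 CPM in the MWF libraries, 0.470 and 0.226 in the MWM libraries, 1.30 and 0.816 in the MKF libraries and 1.17 in MKM2. The Ncr1 level in endogenous fat was 1.28 and 0.853 in EVM, 0.654 and 1.15 in EVFY, 0.772 in EVFN2 and 0.340 and 0.399 in ESM CPM, with 1.27 in MKM1 and 1.62 in EVFN1. Ncr1, the NK receptor NKp46, was highest in EVFN1, and the MWF libraries lay inside the range of the rest. Klrb1c was at 0.266 and 1.09 CPM in the MWF libraries, 0.470 and 0.113 in the MWM libraries, 0.531 and 0.429 in the MKF libraries and 0.356 in MKM2. For Klrb1c, endogenous fat had 0.391 and 0.504 in EVM, 0.804 and 0.0548 in EVFY, 1.07 in EVFN2 and 0.397 and 0.854 in ESM CPM, MKM1 had 0.441 and EVFN1 0.580. Klrb1c encodes the NK1.1 receptor, whose detection by antibody depends on the mouse strain. It was low throughout with no order by group, and the 2 NK receptors summed to 0.339 to 2.20 CPM in the 16 libraries. Prf1, the pore-forming perforin, at 9.30 and 5.78 CPM in MWF and at most 3.43 elsewhere, and Nkg7, a granule membrane protein of T and NK cells, at 14.0 and 11.9 and at most 6.14, were highest in MWF, with MKF1 next in both.

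Across the list, both MWF libraries lay above each of the other 14 for 30 of the 36 members, against 14.7% of the 17964 genes tested. The 6 exceptions were Il2ra, Il7r, Gzma, Gzmb, Ncr1 and Klrb1c. Cd40lg is among the 30, but it reached 1 CPM only in the MWF libraries and so adds no support. Genes of other lymphoid cells moved with these members. A list of 10 B cell genes, among them Cd79a, summed to 1174 and 674 CPM in MWF1 and MWF2, 225 in MKF1 and 5.07 to 51.7 in the other 13 libraries. Glycam1, a product of the high endothelial venules through which lymphocytes enter lymph nodes, was at 58.5 and 17.8 CPM in MWF, 12.4 in MKF1 and at most 0.734 in the others. The 7 lymph node stroma genes summed to 149 and 123 CPM in MWF, and also to 130.4 in EVM1 and 101 in EVFY2, where Ccl21a made up 112 and 81.8 of it. A list of 9 thymus genes, which include the recombinase Rag1 and the thymic epithelial factor Foxn1, summed to 427 CPM in MWF2 and 34.0 in MKM2 and to 2.53 to 8.30 in the other 14, MWF1 among them at 6.16. Rag1 itself was at 159 CPM in MWF2, 12.8 in MKM2 and 0.0483 in MKF1, and had 0 reads in the 13 others. Foxn1 was at 3.71 in MWF2 and 0.204 in MKM2. MWF1 and MWF2 thus shared the B cell, Glycam1 and T cell genes, and the thymus genes were high in MWF2 and not in MWF1. Of the 36 members, 24 were higher in MWF2 than in MWF1, among them Cd8a, Tcf7 and Lck, and 12 were higher in MWF1, among them Trac, Lef1 and Cd2. The part of lymph node and thymus RNA in the T cell levels was not tested.

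**Figure D3:**
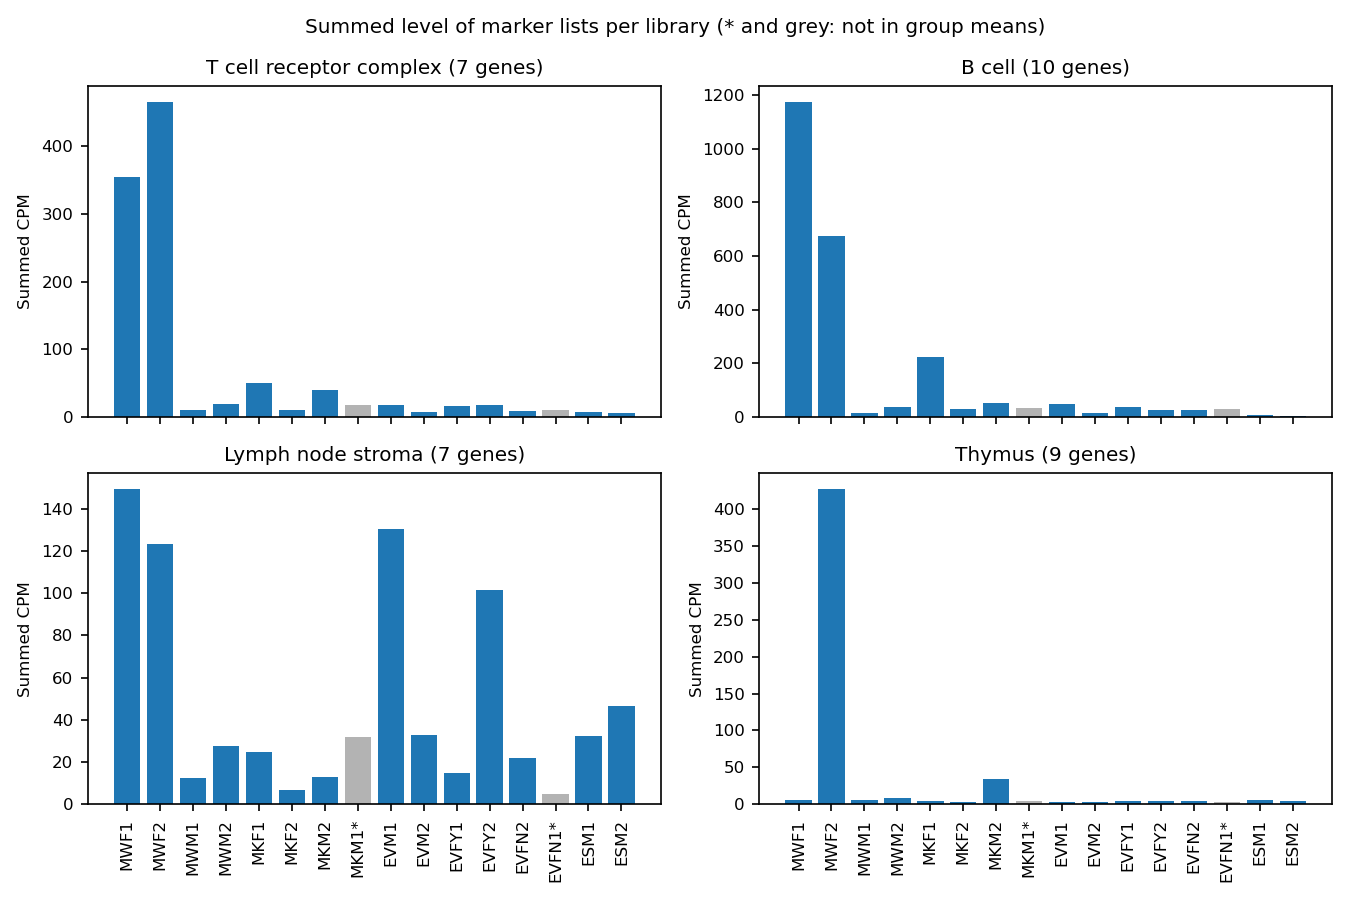
Summed CPM of 4 gene lists in each of the 16 libraries, as bars from 0; grey bars are MKM1 and EVFN1. The T cell receptor and B cell lists are highest in MWF1 and MWF2, the thymus list in MWF2 and then MKM2, and the lymph node stroma list is also high in EVM1 and EVFY2.

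WT implants were compared between the groups described as female and male (MWF minus MWM), on the log2(CPM + 0.5) scale, by limma with Benjamini-Hochberg adjustment at 0.05. This scale understates the change of low genes. Receptor, signalling and T lineage genes were higher in MWF: Foxp3 rose by 3.72 (SE 0.26, adjusted p = 0.000920), Lat by 4.40 (SE 0.41, adjusted p = 0.00107), Icos by 3.33 (SE 0.34, adjusted p = 0.00140) and Zap70 by 4.53 (SE 0.51, adjusted p = 0.00183), 2 libraries against 2. Cd3e rose by 4.97 (SE 0.71, adjusted p = 0.00373) and Cd8a by 5.61 (SE 0.70, adjusted p = 0.00252). In all, 31 of the 36 members rose and 0 fell, while 12.2% of all genes tested rose, and the members' median log2 difference was 3.93 against 0.18 over all genes. All 7 receptor genes, all 3 coreceptors, all 4 signalling genes, all 7 costimulation genes and all 6 transcription factors rose. Il2ra, Gzma, Gzmb, Ncr1 and Klrb1c did not pass. With all 16 libraries 29 rose, against 8.85% of all genes, and edgeR called 30 and DESeq2 31. Of 44 other T and NK cell genes tested from a list of 53, 35 rose and 0 fell; those with the smallest adjusted p were Trat1, a receptor-associated adaptor, by 3.78 (SE 0.32, adjusted p = 0.00104), Cd27, a costimulatory receptor, by 4.45 (SE 0.38, adjusted p = 0.00104), and Rasgrp1, which links the receptor to RAS, by 4.02 (SE 0.35, adjusted p = 0.00107). All 10 B cell genes rose in the same comparison, as did 3 of the 6 lymph node stroma genes and 3 of the 6 dendritic cell genes tested; their part in the result was not tested.

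KO implants were compared with WT implants by their labels, as the Lep level did not test the genotype. In the groups described as female (MKF minus MWF), T cell genes were lower in the KO implants. Foxp3 fell, with a log2 difference of -2.52 (SE 0.26, adjusted p = 0.00111), as did Cd247 at -3.13 (SE 0.38, adjusted p = 0.00179), Icos at -2.80 (SE 0.34, adjusted p = 0.00187) and Lat at -3.18 (SE 0.41, adjusted p = 0.00220) (limma). Cd3e fell by 4.31 and Cd8a fell by 3.96 on the log2 scale (SE 0.71 and 0.70, limma adjusted p = 0.00585 and 0.00753). In all, 30 members fell and 0 rose, while 10.4% of all genes tested fell, and the median log2 difference was -3.23 for members and -0.20 for all genes. Il7r, Il2ra, Gzma, Gzmb, Ncr1 and Klrb1c did not pass. Over all 16 libraries 28 members fell, against 4.77% of all genes. This comparison and the one of MWF with MWM share the 2 MWF libraries, so they are not independent. The MKF libraries themselves were unlike: the members summed to 274 CPM in MKF1 and 124 in MKF2, against 1491 and 1923 in MWF and 65.2 and 81.3 in MWM. Of the 44 other T and NK cell genes, 35 fell and 0 rose, among them Trat1 at -3.63 (SE 0.32, adjusted p = 0.000652) and Satb1, a chromatin organiser of thymocytes, at -3.73 (SE 0.42, adjusted p = 0.00143). Beside them, 7 of 10 B cell genes and 2 of 6 lymph node stroma genes, 3 of 6 dendritic cell genes and 4 of 7 sensory neuron genes fell, and 8 of 8 macrophage genes and 3 of 5 mast cell genes rose; their part in the result was not tested.

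In the groups described as male (MKM2 minus MWM, 1 library against 2, with MKM2 assumed to vary like the other groups), no member passed the limma test, while 1.39% of all genes were called in either direction. The median difference was 1.12 for members and 0.12 for all genes, so both lay above 0. edgeR called 0, and DESeq2 called 3, Cd8a, Il7r and Lat, all higher. The smallest adjusted p were those of Il7r, with a log2 difference of 2.45 (SE 0.57, adjusted p = 0.0854), and Cd8a, at 3.35 (SE 0.86, adjusted p = 0.114) (limma). MKM2 was the library with 12.8 CPM of Rag1, and Cd8a there was 12.6 CPM against 0.517 and 1.13 in MWM. Without MWF1, or without MWF2, 1 member passed. Adding MKM1 and EVFN1, 0 passed. None of the 44 other T and NK cell genes passed, and 4 of 8 macrophage genes rose.

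The KO minus WT difference itself differed between the groups described as male and female for 9 members: Lat, Foxp3, Icos, Cd8a, Cd8b1, Cd4, Cd247, Lck and Bcl11b, each more positive in the male groups. Of all genes tested 0.551% were called in that direction, and the median was 4.08 for members and 0.25 for all genes. The interaction term was 4.89 (SE 0.64, adjusted p = 0.0326) for Lat and 3.16 (SE 0.41, adjusted p = 0.0326) for Foxp3, and 3.58 (SE 0.54, adjusted p = 0.0384) for Icos and 7.31 (SE 1.11, adjusted p = 0.0384) for Cd8a (limma, log2 scale). Over the alternatives the adjusted p for Lat ranged from 3.0e-08 to 0.125 and for Cd8a from 1.5e-06 to 0.135. With all 16 libraries 18 members were called, against 1.2% of all genes, DESeq2 called 24 and edgeR 0. The count was 0 without MKF2, MWF2, MWM1 or MWM2, and also without ESM1, ESM2, EVFY1 or EVFY2, which enter only through the shared estimate of spread. It was 3 without MWF1, 16 without EVM1 or EVM2 and 26 without MKF1. Of the 44 other T and NK cell genes, 8 were called, all more positive in the male groups, Trat1 and Cd27 among them. No share of all genes is given beside the DESeq2, edgeR and leave-one-out counts, so these counts are not set against a background. The interaction term uses the same libraries as the 2 comparisons within the female and male groups. In the same term the median was 4.73 for the 10 B cell genes and 6.44 for the 5 tested thymus genes, against 4.08 for the members. The part of B cell and thymus RNA in the result was not tested.

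**Figure D4:**
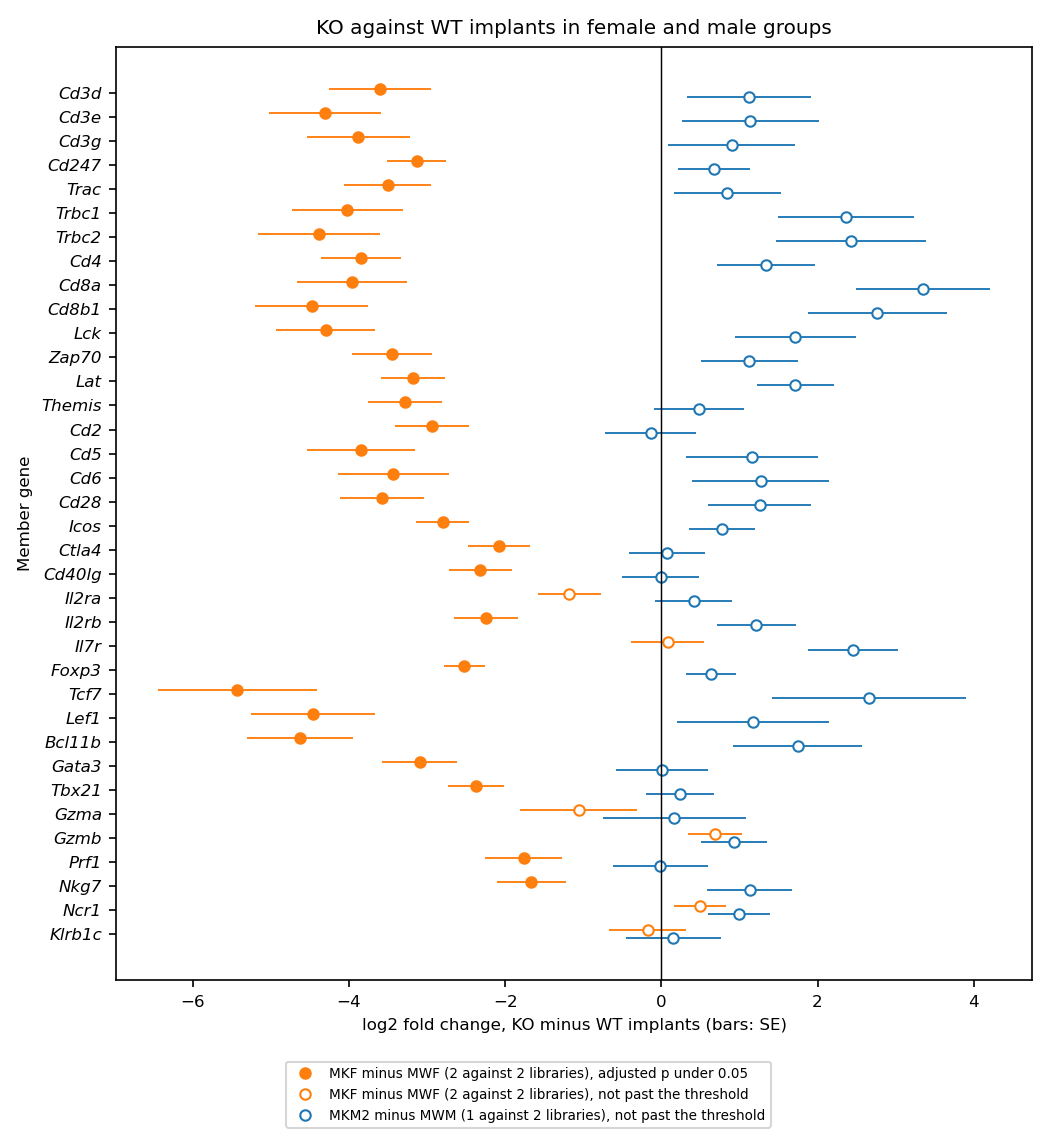
Log2 difference of KO minus WT implants for each member, with bars of 1 SE, in the groups described as female (orange) and male (blue); filled points passed the limma test at an adjusted p of 0.05. Most members lie below 0 in the female groups and above 0 in the male groups, and the medians over all genes lie on the same sides of 0.

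Averaged over both pairs of groups (KO minus WT implants), 8 members fell and 0 rose, while 4.1% of all genes fell, with a median of -1.07 for members and -0.06 for all genes. The 4 with the smallest adjusted p were Foxp3 at -0.94 (SE 0.21, adjusted p = 0.0234), Cd2 at -1.54 (SE 0.37, adjusted p = 0.0334), Cd247 at -1.22 (SE 0.30, adjusted p = 0.0336) and Gata3 at -1.54 (SE 0.38, adjusted p = 0.0354) on the log2 scale (limma). The other 4 were Tbx21, Themis, Icos and Cd40lg. Of these, Cd40lg passed the filter on low values only through the MWF libraries. Over the alternatives the adjusted p ranged from 0.00285 to 0.111 for Foxp3 and 0.00228 to 0.101 for Cd247. With all 16 libraries 2 members fell, Foxp3 and Cd247, against 1.04% of all genes. The count was 17 without MKF1, 0 without MKF2 or MWM2, 2 without MWF1, 3 without MWF2, 1 without MWM1, and 5 without ESM1, ESM2, EVFY1 or EVFY2. edgeR called 1. The DESeq2 count stayed within 1.5 times the reported 8, but DESeq2 did not call Foxp3, Icos or Cd40lg. No share of all genes is given beside the edgeR, DESeq2 and leave-one-out counts. As the female and male differences had opposite signs for most members, the average lies between them. In this average all 8 macrophage genes rose, with a median of 1.62, as did 3 of 5 mast cell genes, while 4 of 7 sensory neuron genes, 1 of 6 lymph node stroma genes and 1 of 6 dendritic cell genes fell; their part in the result was not tested. Of the 44 other T and NK cell genes 7 fell and 1 rose; Lag3, an inhibitory receptor, was at -1.09 (SE 0.20, adjusted p = 0.0121), Cd226, an activating receptor, at -1.70 (SE 0.32, adjusted p = 0.0130), and Il1rl1, the interleukin 33 receptor, which mast cells also make, rose by 1.14 (SE 0.24, adjusted p = 0.0193).

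WT implants were also compared with endogenous visceral fat (mean of EVM, EVFY and EVFN2). Themis rose by 3.57 (SE 0.32, adjusted p = 0.000518), Foxp3 by 1.49 (SE 0.18, adjusted p = 0.00114), Lat by 2.26 (SE 0.28, adjusted p = 0.00126) and Cd247 by 1.75 (SE 0.26, adjusted p = 0.00273) on the log2 scale (limma). Cd3e rose by 2.60 (SE 0.49, adjusted p = 0.00800) and Cd8a by 2.86 (SE 0.48, adjusted p = 0.00505). In all, 30 members rose and 0 fell, against 15.8% of all genes rising, with a median of 1.87 for members and 0.11 for all genes. The fit of all 16 libraries had 27 rising, against 8.03% of all genes. The WT mean joins unlike groups. The members summed to 1491 and 1923 CPM in MWF and 65.2 and 81.3 in MWM, and the 5 visceral libraries of the fit had 124, 65.8, 79.3, 81.2 and 60.6, so MWM overlapped visceral fat. For Themis, MWM did not overlap: 3.71 and 4.12 CPM against 0.194 to 0.658 in visceral fat. Of the 44 other genes 31 rose and 0 fell, with Trat1 at 1.87 (SE 0.22, adjusted p = 0.00105), Rasgrp1 at 1.87 (SE 0.24, adjusted p = 0.00151) and Sh2d1a, the adaptor SAP, at 1.82 (SE 0.26, adjusted p = 0.00219). B cell genes rose for 5 of 10, with a median of 2.33, and sensory neuron genes for 6 of 7, with a median of 1.69, while 6 of 8 adipocyte genes fell, with a median of -0.73. The median was 2.08 for the 5 thymus genes tested and 0.96 for the 6 lymph node stroma genes tested. The part of these cells and tissues in the result was not tested.

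KO implants (MKF and MKM2) were compared with the same visceral libraries. Il7r rose by 2.99 (SE 0.36, adjusted p = 0.000738), Themis by 2.17 (SE 0.36, adjusted p = 0.00346), Lat by 1.53 (SE 0.31, adjusted p = 0.00872) and Cd8a by 2.56 (SE 0.54, adjusted p = 0.0103) on the log2 scale (limma). With Cd8b1 and Trbc1, 6 members rose and 0 fell. The share of all genes that rose was 16.3%, so 6 of 36 members is near the background. The median was 0.82 for members and 0.08 for all genes. For the DESeq2, edgeR and leave-one-out counts that follow, no share of all genes is given, so they are not set against a background. With all 16 libraries 0 members rose and 0.0% of all genes did. Without EVFN1 and MKM1, DESeq2 called 10 and edgeR 9. Without MKF2 the count was 18. The adjusted p of Il7r ranged from 1.4e-12 to 0.455 over the alternatives, the highest being with all 16 libraries. All 8 macrophage genes rose in the same comparison, with a median of 1.76, and so did 4 of 5 mast cell genes, while 4 of 8 adipocyte genes fell; their part in the Il7r result was not tested. Lat and Cd8a had 11.2, 4.94 and 10.7 and 7.97, 1.42 and 12.6 CPM in MKF1, MKF2 and MKM2, lowest in MKF2, against 2.02 to 4.46 and 0.439 to 1.06 in visceral fat. Of the 44 other genes 6 rose and 1 fell; Lcp2, the adaptor SLP-76, which macrophages also make, rose by 1.43 (SE 0.19, adjusted p = 0.00112), Havcr2, the receptor TIM-3, by 2.23 (SE 0.37, adjusted p = 0.00313) and Jak3, the kinase of the common gamma chain, by 0.59 (SE 0.13, adjusted p = 0.0129). The part of macrophage RNA in the rises of Lcp2, Havcr2 and Jak3 was not tested either. The 2 comparisons with visceral fat share its libraries.

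Within endogenous fat the members were low and limma called none. They summed to 38.2 to 124 CPM in the 7 libraries of the fit, lowest in the 2 ESM libraries. Visceral minus subcutaneous fat gave 0 calls among members by limma and by edgeR. DESeq2 called 3, Cd4, Il7r and Trac, all higher in visceral fat. Of all genes 1.2% were called in either direction, and the median was 0.71 for members and 0.05 for all genes. The smallest adjusted p were those of Il7r at 1.49 (SE 0.40, adjusted p = 0.187) and Trac at 1.65 (SE 0.47, adjusted p = 0.219) (limma). Trac was at 2.79, 1.63, 4.57, 5.76 and 2.44 CPM in the 5 visceral libraries and 0.737 and 0.513 in the ESM libraries. EVM minus EVFY gave 0 calls by limma and edgeR, while DESeq2 called 2, Il7r and Foxp3, and 0.857% of all genes were called by limma. The median was -0.16 for members and -0.04 for all genes. Il7r was at 25.2 and 17.9 CPM in EVM and 5.03 and 4.55 in EVFY, a log2 difference of 2.04 (SE 0.47, adjusted p = 0.0922), and Foxp3 at 1.34 and 1.43 and 0.302 and 0.548, a difference of 1.04 (SE 0.26, adjusted p = 0.115) (limma). With MWF1 or with MWF2 left out of the fit, 1 member passed. EVFY's surgery and sex are not given in words, so what this comparison contrasts beyond the codes cannot be said. Over the 44 other genes, 0 passed in either of these comparisons.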

How the data were processed

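RNA of 16 libraries was measured by sequencing. Per the labels' protocols, ribosomal RNA was removed with RNase H and cDNA was made with random hexamers; the labels also name polyA RNA. According to the submitters' processing notes, reads were handled with STAR 2.5.4, cutadapt 2.7, Subread 1.6.3 (featureCounts) and FastQC 0.11.4, on mm10. Neither strand setting nor annotation release is given in the sources used here, so reads of overlapping or antisense genes cannot be told apart.

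The authors deposited 1 table of CPM values per gene symbol. All nonzero values were whole multiples of 1 read (100%, within 0.001 reads), and the recovered counts served edgeR and DESeq2. Library totals of 16444965 to 25805502 reads put 3 reads, the most that a count of 0 allows, at 0.116 to 0.182 CPM. The reads carry no molecular identifiers, so intervals and floors cover counting error only.

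The main test was limma 3.58.1 in R 4.3.3 (trend and robust options of eBayes) on log2(CPM + 0.5), over the 17964 genes that reached 1 CPM in 2 or more of the 16 libraries. The fit held 14 libraries, without EVFN1 and MKM1, as 8 group means with 6 residual degrees of freedom. P-values were adjusted by Benjamini-Hochberg over all genes tested, and rising or falling means an adjusted p below 0.05. Alternatives were all 16 libraries, pseudocounts of 0.1 and 2, no filter, median-of-ratios and TMM scaling, edgeR 4.0.16 quasi-likelihood, DESeq2 1.42.0, the replicate number as a block, and each library left out. The fit was also run on simulated data with 200 changed genes. The simulated spread was set alike for every gene and no low gene was changed. That run therefore does not measure how well the calls hold in these data.

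Levels are given in every library for Cd3d, Cd3e, Cd4, Cd8a, Lck, Tcf7, Foxp3, Gata3, Il7r, Gzma, Ncr1 and Klrb1c. In each comparison, fold changes are given for up to 4 members with the smallest adjusted p, or up to 2 where none passed, and for Cd3e or Cd8a where they passed; up to 3 other T and NK cell genes are named by the same order, except that a gene of that list is not reported here. Gene positions and exon lengths are those of GENCODE M21, which held all 36 members; promoters are from RefSeq on GRCm38.p6. In the lists, Trgc1, Trgc2 and Fdcsp were not matched by symbol. The members, lists, rules and alternatives were chosen with earlier results of these data known. Chi-square values of 24.7 to 240 per degree of freedom between the libraries of a group were above sampling noise, so none was merged.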

Additional observations from a re-analysis of the deposited data

Results flagged for a closer look

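The KO minus WT difference between implants was tested for a difference between the groups described as male and female, by an interaction term in the limma fit, and 9 of the 36 members passed, all with the male difference more positive. Foxp3 was at 3.16, Lat at 4.89, Icos at 3.58 and Cd8a at 7.31 on the log2 scale. The male side rests on the single library MKM2, whose 9 thymus genes summed to 34.0 CPM, and the female side on the MWF libraries, where they summed to 6.16 and 427 and the 10 B cell genes to 1174 and 674. Their part in the result was not tested. The count of 9 ranged from 0 to 26 when 1 library was left out.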

How the results depend on the processing

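Counts of members called were recomputed in 203 alternatives over the 9 comparisons, and 158 stayed within 1.5 times the reported count. For most alternatives, edgeR and DESeq2 among them, no share of all genes is given. Their counts are therefore not set against a background. For KO minus WT implants (8 members), the count was 2 with all 16 libraries, 1 by edgeR, 5 without the filter, 2 and 17 with pseudocounts of 0.1 and 2, and 0 to 17 with 1 library left out. For the difference between male and female groups (9), it was 18 with all 16 libraries, 24 by DESeq2, 0 by edgeR, 14 without the filter, 0 and 24 with pseudocounts of 0.1 and 2, and 0 to 26 with 1 library left out. For the male groups (0), DESeq2 called 3, and leaving out 1 library gave 0 to 1. For KO implants minus visceral fat (6), the count was 0 with all 16 libraries, 10 by DESeq2 and 5 to 18 with 1 library left out. DESeq2 called 3 members in visceral minus subcutaneous fat (0) and 2 in EVM minus EVFY (0), where leaving out 1 library gave 0 to 1. With 1 library left out, the female groups had 22 to 30 calls (30), MWF minus MWM 26 to 32 (31) and WT implants minus visceral fat 22 to 30 (30), and these 3 counts also stayed within 1.5 times in all other alternatives run. Comparisons that use MKM gave no value without MKM2. Where leaving out a library left a group with 1, that library is assumed to vary like the other groups.

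Of 678 alternative values for named genes, 604 stayed on the same side of the threshold, 74 fell short of it and 0 changed sign. The calls of Cd3e, Cd8a, Foxp3 and Lat between MWF and MWM held in all 23 alternatives, as did those of Cd3e and Cd8a in the female groups.

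With the replicate number as a block, KO minus WT implants gave 3 calls, 1 higher and 2 lower, and the male groups 1; the other counts stayed within 1.5 times. The deviations of same-numbered libraries had correlations of -0.44 to 0.34 over 15 pairs of groups, 7 of them over 0.1. These mixed values cannot settle whether the numbers pair some of the libraries.

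Median-of-ratios scaling moved the median of all genes from -0.20 to -0.08 in the female groups, 0.12 to 0.00 in the male groups, 0.25 to 0.02 for their difference and 0.18 to -0.03 for MWF minus MWM. All-gene calls went from 1077 higher and 1867 lower to 1651 and 1472 in the female groups and from 2197 and 261 to 1311 and 812 for MWF minus MWM, while the members kept 30 and 31 calls, with medians of -3.10 and 3.72. Low read counts limit Ncr1, Klrb1c, Cd40lg and Gzmb. Their reads per library ran from 4 to 28 for Ncr1, 1 to 18 for Klrb1c, 0 to 65 for Cd40lg and 2 to 33 for Gzmb.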

Other observations

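Further T cell genes, chosen after their values were seen, separated the 2 MWF libraries from each other. Ccr7, the chemokine receptor that guides T cells into lymph nodes, was at 61.8 CPM in MWF1 and 30.1 in MWF2, and next highest in MKF1, at 6.76. Trdc, the constant region of the delta receptor chain, went the other way, with 4.36 CPM in MWF1 and 17.7 in MWF2 and at most 1.53 in the other 14. Il7r was higher in MWF1 than in MWF2, while Trac was 88.7 and 64.8.

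The list of other T and NK cell genes held 6 genes for interferon gamma and interleukins, with these levels. Ifng, the type 1 helper cytokine, was at 0.159 and 0.426 CPM in MWF and at most 0.439 elsewhere. Il2, the T cell growth factor, was at 1.01 and 0.851 in MWF and 0.251 to 1.15 elsewhere. Il4, a type 2 cytokine, was at 0.691 and 1.28 in MWF and 0.638 to 1.90 elsewhere. Il13, another type 2 cytokine, was at 0.0531 and 0.730 in MWF and at most 0.395 elsewhere. Il21, made by helper T cells, was at 0.584 and 0.791 in MWF and at most 0.113 elsewhere. Il17a had 0 reads in all 16 libraries, which allows up to 0.116 to 0.182 CPM per library. Both MWF libraries were above all others for Il21 and for none of the other 5.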
